A study of Musca domestica with 10 samples.

Results

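Of the 15803 genes counted in whole house fly (Musca domestica) embryos, 9 were present through early development at a moderate level and stood several-fold higher at dorsal closure, the stage at which epidermal sheets meet along the dorsal midline. They were chosen by their own read counts. A gene had to reach 5 CPM (its reads per 1000000 reads assigned to genes) in all 8 libraries of syncytial blastoderm, cellular blastoderm, gastrula and germ band extension. Both dorsal closure libraries then had to be at least 4 times the highest of those 8. The level at dorsal closure relative to the earlier stages is therefore a description of how the genes were picked, and no result is drawn from a test of it. The samples were frozen pools of 100 whole embryos, with 2 biological replicates for each of the 5 stages. The labels give no treatment, genotype or strain, so stage is the variable compared. The shallowest library, syncytial blastoderm replicate 1, held 16288442 gene reads, and the other 9 held 42479342 to 83604709.

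In insects the earliest embryo runs largely on RNA that the mother loaded into the egg. This stock is degraded in steps while the nuclei of the embryo start to transcribe their own genome, around the time cell membranes form. Later, as organs and cuticle-forming tissues take shape, many genes are switched on for the first time. A gene that is already represented in the young embryo and is then strongly increased late belongs to neither simple class. Reads at syncytial blastoderm do not by themselves separate maternal RNA from early transcripts of the embryo, and no unfertilised eggs were analysed here, so "maternal" was not tested for these genes. In whole embryos, a change in the number of cells that express a gene and a change in RNA per cell cannot be told apart. The files identify genes by MDOA identifiers without names. Of the 15803 identifiers, 0 matched the RefSeq gene table at hand, which is of another annotation, so no function, position or sequence is given for any of the 9.

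The combination was rare. The floor of 5 CPM in all 8 earlier libraries was met by 5241 genes, and 9 of these (0.172%) also met the ratio. In dorsal closure replicate 1 alone, 37 of the 5241 stood at 4 times their highest earlier library or more, and in replicate 2 alone 13 did. Thus 28 genes met the ratio only in replicate 1 and 4 only in replicate 2. At dorsal closure 187 of the 5241 genes (3.57%) had both libraries above all 8 earlier ones, and 41 (0.782%) had both at least 2 times as high. The median log2 fold change at dorsal closure against germ band extension was 3.53 for the 9 genes, which the choice of genes fixes, and -0.66 for all genes at the floor.

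**Figure D1:**
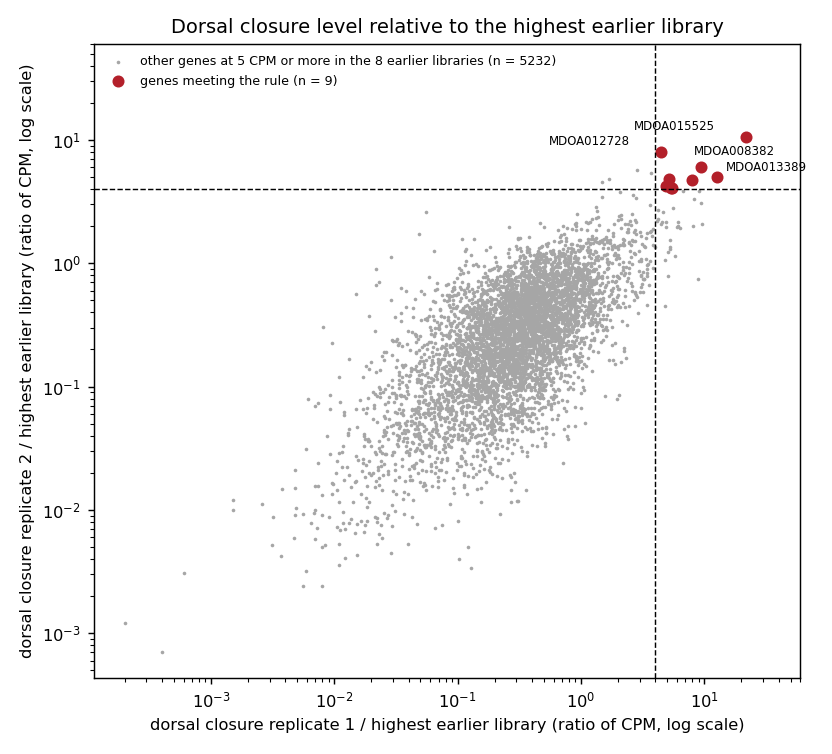
Each point is 1 of the 5241 genes at 5 CPM or more in the 8 earlier libraries; the axes give the CPM of dorsal closure replicate 1 (horizontal) and replicate 2 (vertical) divided by the highest earlier library, both on log scales, and dashed lines mark a ratio of 4. The 9 chosen genes (red) fill the upper right corner, MDOA015525 lies farthest out at 21.8 and 10.6, and most of the other 5232 genes lie below 1 on both axes.

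Together the 9 genes took 0.74% of the gene reads in dorsal closure replicate 1 and 0.549% in replicate 2. In the 8 earlier libraries they took 0.0411% to 0.0922%. Ranked by reads, which also grow with transcript length, 9 of the 9 were among the 1000 leading genes of dorsal closure replicate 1 and 8 of the 9 among those of replicate 2. In each syncytial blastoderm library, 1 of the 9 was. The counts behind these values ran from 93 reads, for MDOA012728 in syncytial blastoderm replicate 1, to 230314 reads, for MDOA008036 in dorsal closure replicate 1.

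MDOA015525 had the largest ratio. It was counted at 65.4 and 49.2 CPM at syncytial blastoderm, 41.5 and 47.1 at cellular blastoderm, 47.3 and 23.7 at gastrula, 47.6 and 65.0 at germ band extension, and 1426 and 691 CPM at dorsal closure (replicates 1 and 2 throughout). The dorsal closure libraries were 21.8 and 10.6 times its highest earlier library, so it was the only one of the 9 to keep its place when a ratio of 8 was asked for. The earlier libraries spread 2.76-fold in no steady direction. In CPM, both cellular blastoderm libraries were below those of syncytial blastoderm. Both germ band extension libraries were above those of gastrula, the nearest by little (47.6 against 47.3 CPM). At the floor, 32.4% of the 5241 genes had the first pattern, as did 4 of the 9. The second was found in 11.4%, and in 4 of the 9. With the TMM library scaling of the tests below, the fall of MDOA015525 was not seen. Its unblocked edgeR log2 fold change was 0.011 for cellular against syncytial blastoderm, and 0.596 ± 0.499 (SE) for germ band extension against gastrula.

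MDOA013389 and MDOA015133 were also comparatively level before dorsal closure. MDOA013389 had the narrowest earlier range of the 9, 1.88-fold, with 34.0 and 24.4 CPM at syncytial blastoderm, 36.1 and 26.2 at cellular blastoderm, 40.1 and 25.3 at gastrula, 38.4 and 21.3 at germ band extension, and 510 and 203 CPM at dorsal closure. Replicate 1 was above replicate 2 at all 5 stages, and the stages before dorsal closure overlapped throughout. MDOA015133 had 47.5 and 66.6 CPM at syncytial blastoderm, 44.1 and 84.3 at cellular blastoderm, 46.8 and 56.8 at gastrula, 60.8 and 114 at germ band extension, and 555 and 482 CPM at dorsal closure. In CPM, its germ band extension libraries were both above its gastrula libraries, as in 11.4% of the genes at the floor and 4 of the 9. Replicate 2 of germ band extension was its highest library before dorsal closure.

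MDOA008036 took the most reads of the 9 at every stage. It had 531 and 485 CPM at syncytial blastoderm, 349 and 225 at cellular blastoderm, 220 and 186 at gastrula, 330 and 409 at germ band extension, and 2840 and 2170 CPM at dorsal closure. The values formed a shallow trough with its lowest point at gastrula, where neither library reached those of germ band extension or of either blastoderm stage. Of the 5241 genes at the floor, 27.9% were separate and lower at gastrula than at cellular blastoderm, as were 4 of the 9. At germ band extension 11.4% were separate and higher than at gastrula, and 4 of the 9. MDOA008036 lay just inside the threshold: its smaller ratio was 4.09. MDOA000987 lay just outside at 3.88, with 11.8 and 14.0 CPM at syncytial blastoderm, 83.4 and 110 at germ band extension, and 1001 and 425 CPM at dorsal closure.

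In CPM, MDOA008382 and MDOA007597 declined from stage to stage before dorsal closure. With the TMM library scaling of the tests below, their first step was small. The unblocked edgeR log2 fold change for cellular against syncytial blastoderm was -0.141 for MDOA008382 and -0.105 for MDOA007597. MDOA008382 had 37.0 and 40.1 CPM at syncytial blastoderm, 25.4 and 29.0 at cellular blastoderm, 13.2 and 18.5 at gastrula, 11.8 and 9.17 at germ band extension, and 378 and 241 CPM at dorsal closure. In CPM its libraries did not overlap between any neighbouring stages. Of the 5241 genes at the floor, 32.4% had both libraries lower without overlap at cellular blastoderm than at syncytial blastoderm. At gastrula against cellular blastoderm 27.9% did, and at germ band extension against gastrula 11.3%. Of the 9 genes, 4, 4 and 1 did at these steps. MDOA007597 had 59.3 and 136 CPM at syncytial blastoderm, 43.6 and 101 at cellular blastoderm, 24.1 and 42.1 at gastrula, 17.4 and 31.5 at germ band extension, and 740 and 560 CPM at dorsal closure. Within each replicate series every step before dorsal closure was downward in CPM. Replicate 2 was the higher one at all 4 earlier stages. Before dorsal closure, only the step to gastrula separated the CPM of neighbouring stages without overlap.

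Measured against germ band extension rather than the highest earlier library, these declining genes had the largest contrast: the mean at dorsal closure was 29.6 times that at germ band extension for MDOA008382 and 26.6 times for MDOA007597. For the other 7 genes this ratio lay between 5.92 and 18.8. MDOA010465, the gene with the fewest reads at dorsal closure, had 12.5 and 21.8 CPM at syncytial blastoderm, 15.7 and 14.7 at cellular blastoderm, 10.4 and 6.45 at gastrula, 11.2 and 6.77 at germ band extension, and 174 and 103 CPM at dorsal closure. In CPM, both its gastrula and both its germ band extension libraries were below all 4 blastoderm libraries. Of the 5241 genes at the floor, 27.9% were separate and lower at gastrula than at cellular blastoderm, as were 4 of the 9. At germ band extension against syncytial blastoderm 44.4% were, and 4 of the 9. With TMM scaling the log2 fold change of MDOA010465 for the latter comparison was -0.597 ± 0.517 (SE, unblocked edgeR).

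MDOA000855 dipped early. It had 46.4 and 80.4 CPM at syncytial blastoderm, 9.33 and 14.3 at cellular blastoderm, 16.0 and 18.2 at gastrula, 19.7 and 48.5 at germ band extension, and 413 and 387 CPM at dorsal closure. In CPM, each stage was separate from the one before it, down at cellular blastoderm and up at each later stage. The rises to gastrula and to germ band extension were not called in the edgeR tests below. Their log2 fold changes were 0.705 ± 0.605 and 0.907 ± 0.606 (SE, without the block). Of the 5241 genes at the floor, 32.4% were separate and lower at cellular blastoderm, as were 4 of the 9. Separate and higher were 9.23% at gastrula and 11.4% at germ band extension, and 1 and 4 of the 9. The dorsal closure libraries of MDOA000855 were the closest to each other of the 9, at 400 ± 18.8 CPM (mean ± SD, n = 2).

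MDOA012728 climbed before dorsal closure, steadily in replicate 2 and unevenly in replicate 1. It had 5.71 and 17.7 CPM at syncytial blastoderm, 15.0 and 22.3 at cellular blastoderm, 14.6 and 34.7 at gastrula, 17.5 and 81.1 at germ band extension, and 360 and 650 CPM at dorsal closure. Replicate 2 was higher at all 5 stages, most of all at germ band extension, where it was 4.64 times replicate 1. The dorsal closure mean was 43.1 times that of syncytial blastoderm and 10.3 times that of germ band extension. With its lowest library at 5.71 CPM, this gene stood just inside the floor, and MDOA007422 stood just outside it, with 241 and 111 CPM at dorsal closure, and with 4.78 CPM in its lowest and 16.1 CPM in its highest earlier library.

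**Figure D2:**
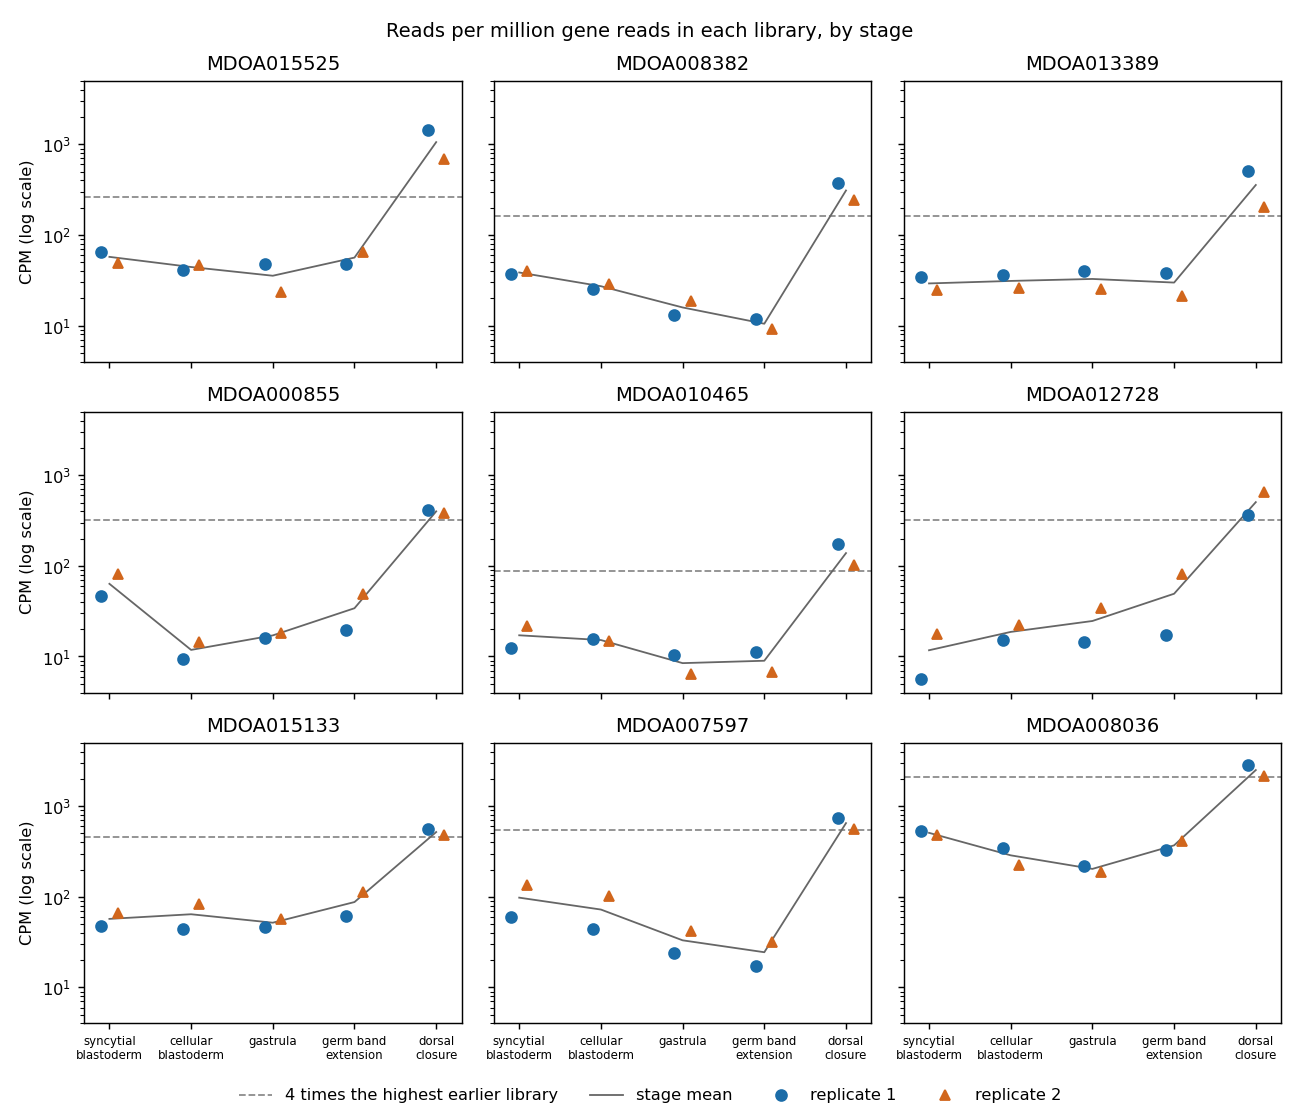
CPM on a log scale in each library of the 9 genes, by stage in the order of development; circles are replicate 1, triangles replicate 2, the line joins stage means and the dashed line is 4 times the highest earlier library. Every dorsal closure point lies above the dashed line, and the courses before it differ: MDOA008382 and MDOA007597 decline, MDOA000855 dips at cellular blastoderm and MDOA012728 climbs.

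Whether the genes differed among the 4 stages before dorsal closure is a question the rule constrains but does not decide, since its floor and its ratio bound these values without fixing their direction. In edgeR's quasi-likelihood test over the 4 stages, 0 of the 9 passed a Benjamini-Hochberg adjusted p under 0.05, where 12.2% of the 11286 genes tested and 5.25% of the 5241 genes at the floor did. At an unadjusted p under 0.05 stood 2 of the 9, against 26.7% of all genes. DESeq2 called 2 of the 9, against 30.6% of the genes to which it gave an adjusted p, and limma-voom called 0, against 11.8%. Replicate differences recurred across stages, and with the replicate number as a block 4 of the 9 passed, against 29.1% of all genes and 25.2% of those at the floor. These were MDOA000855 (blocked edgeR adjusted p = 0.015), MDOA012728 (0.019), MDOA008382 (0.039) and MDOA007597 (0.048). Without syncytial blastoderm replicate 2 the blocked test called 0 of the 9, where it called 16.5% of all genes. Without each of the other libraries it called 1 to 4, where it called 16.6% to 32.4% of all genes.

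From syncytial to cellular blastoderm, MDOA000855 fell in the fit with the replicate block, by a log2 fold change that was estimated at -2.04 ± 0.40 (SE; adjusted p = 0.013, edgeR). Its mean was 11.8 ± 3.52 CPM at cellular blastoderm and 63.4 ± 24.0 CPM at syncytial blastoderm (SD, n = 2 each). Without the block the log2 fold change was -2.08 ± 0.63 and the edgeR adjusted p was 0.16. This was 1 of the 9 genes, against 8.01% of all genes tested with the block. Of genes at the floor 6.22% were called with the block, 4.88% as lower. Without the block 0 of the 9 passed, against 2.75% of all genes and 0.687% of those at the floor. At an unadjusted p under 0.05 stood 1 of the 9, against 12.7% of all genes. DESeq2 called 1 of the 9 and 9.74% of the 10410 genes to which it gave an adjusted p. In limma-voom 0 of the 9 and 3% of all genes were called. The blocked call was lost without syncytial blastoderm replicate 2 and without either cellular blastoderm library. The median log2 fold change of the 9 genes was 0.01 without the block. That of all genes tested was 0.10, and that of genes at the floor 0.215.

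At the next steps no gene of the 9 passed in edgeR, with or without the block. For gastrula against cellular blastoderm, 0% of all genes tested passed without the block and 6.68% with it. Of genes at the floor, 0% and 3.74% passed. In either fit 0 of the 9 genes were at an unadjusted p under 0.05. Of all genes, 12.6% were without the block and 20.6% with it. DESeq2 called 0 of the 9 and 8.66% of the 10410 genes to which it gave an adjusted p. In limma-voom 0 of the 9 and 0% of all genes were called. The median log2 fold change without the block was -0.20 for the 9 genes, 0.09 for all genes and -0.017 for genes at the floor. For germ band extension against gastrula, 0% of all genes passed with or without the block. Of the 9 genes, 0 without the block and 1 with it, MDOA008036, had an unadjusted p under 0.05, against 5.08% of all genes without the block and 9.65% with it. DESeq2 called 0 of the 9 and 1.82% of the 9535 genes to which it gave an adjusted p. In limma-voom 0 of the 9 and 0% of all genes were called. The median log2 fold change without the block was 0.60 for the 9 genes, 0.00 for all genes and -0.165 for genes at the floor.

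Across the whole span before dorsal closure, from syncytial blastoderm to germ band extension, the 9 genes moved in both directions. In the fit with the replicate block MDOA012728 rose and MDOA007597 and MDOA008382 fell, that is 1 of the 9 higher and 2 of the 9 lower. Of all genes tested, 17.5% were called higher and 14.5% lower, and of those at the floor, from which the 9 come, 10.2% were called higher and 18.7% lower. MDOA012728 averaged 49.3 ± 45.0 CPM at germ band extension and 11.7 ± 8.50 CPM at syncytial blastoderm (SD, n = 2 each), and the log2 fold change was 2.37 ± 0.46 (SE; blocked edgeR adjusted p = 0.0045, unblocked 0.12). MDOA007597 averaged 24.4 ± 10.0 CPM at germ band extension and 97.9 ± 54.5 CPM at syncytial blastoderm, and the log2 fold change was -1.56 ± 0.42 (blocked edgeR adjusted p = 0.021, unblocked 0.16). MDOA008382 averaged 10.5 ± 1.85 CPM at germ band extension and 38.6 ± 2.17 CPM at syncytial blastoderm, and the log2 fold change was -1.49 ± 0.36 (blocked edgeR adjusted p = 0.013, unblocked 0.055).

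Without the block 0 of the 9 passed this comparison, against 14.9% of all genes tested and 7.59% of those at the floor. At an unadjusted p under 0.05 were 3 of the 9, against 31.2% of all genes. DESeq2 called 2 of the 9, MDOA008382 and MDOA012728, and 29.6% of all genes. In limma-voom 0 of the 9 and 16.9% of all genes were called. The rise of MDOA012728 passed in the blocked fit with each library left out in turn, at an edgeR adjusted p of 0.00094 to 0.046, although its size depended on germ band extension replicate 2: the log2 fold change was 1.59 without that library. Without the block it was 2.49 with all libraries and 0.70 without germ band extension replicate 2 (edgeR adjusted p = 0.71). The fall of MDOA008382 was not called in the blocked fit without syncytial blastoderm replicate 2 or germ band extension replicate 2. That of MDOA007597 was not called without syncytial blastoderm replicate 2 or either germ band extension library. An increase already before dorsal closure was thus called for MDOA012728 in the blocked edgeR fit and in DESeq2, which had no block. It was not called in the unblocked edgeR fit of all libraries or in limma-voom.

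**Figure D3:**
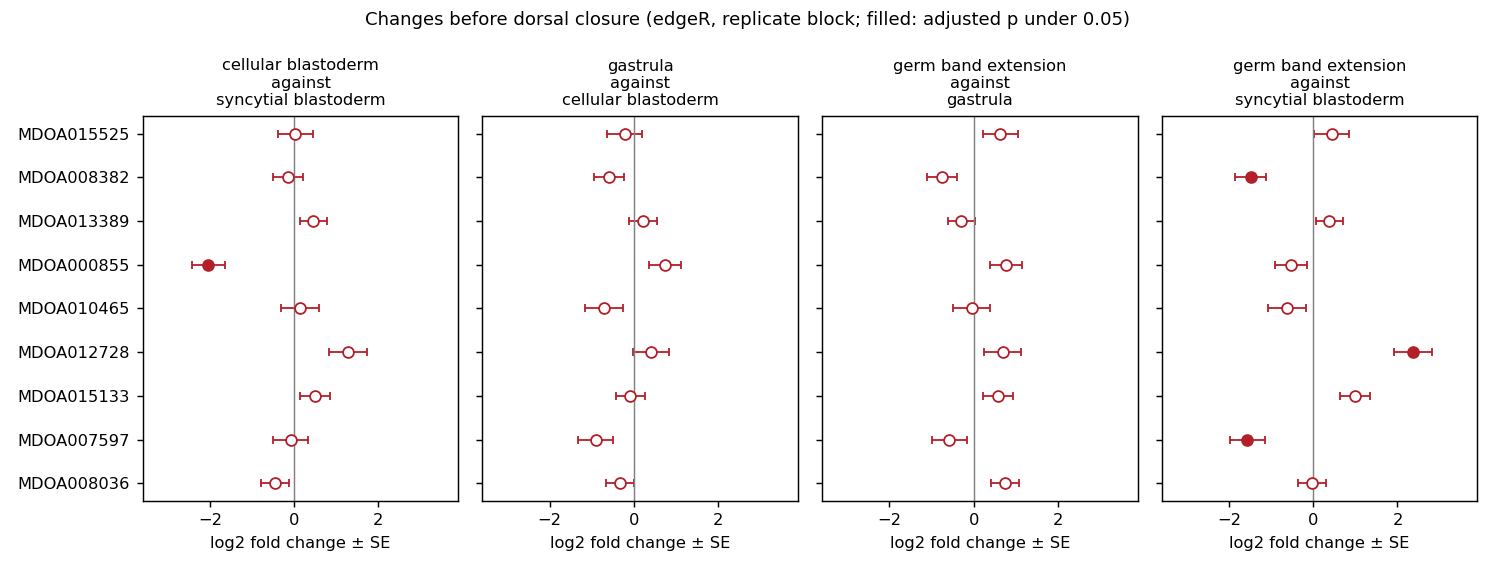
Log2 fold changes of the 9 genes for the steps before dorsal closure and for germ band extension against syncytial blastoderm, from edgeR with the replicate block; bars are ± SE and filled points have an adjusted p under 0.05. The filled points are MDOA000855 at -2.04 for cellular against syncytial blastoderm, and MDOA012728 at 2.37, MDOA007597 at -1.56 and MDOA008382 at -1.49 for germ band extension against syncytial blastoderm.

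In the contrast used to choose them, dorsal closure against germ band extension, 8 of the 9 genes were called higher without the block, where 9.6% of all genes tested were, and 9 of 9 with it, where 20.1% were. The gene not called without the block was MDOA012728. Nothing is read from these counts, since the genes were selected for this difference.

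The size of the increase at dorsal closure can also be given within each replicate series. Each dorsal closure library was compared with the highest earlier library of its own replicate number. In replicate 1 the ratio was 5.35 for MDOA008036, 8.90 for MDOA000855 and up to 21.8 for MDOA015525, with a median of 11.1 over the 9 genes. In replicate 2 it ran from 4.10 for MDOA007597 to 10.6 for MDOA015525, with a median of 4.81. The ratio was larger in replicate 1 for 9 of the 9 genes and for 54.4% of the 5241 genes at the floor. These ratios are built from the values that chose the genes, so nothing is read from that count. For MDOA012728, MDOA015133 and MDOA015525 the highest earlier library of the replicate 2 series was germ band extension.

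Dorsal closure replicate 1 was above replicate 2 for 8 of the 9 genes, by 1.07-fold for MDOA000855 to 2.52-fold for MDOA013389, and below it for MDOA012728 (0.554-fold). Over the 5241 genes at the floor, replicate 1 was higher for 56.9%, with a median ratio of 1.17. At germ band extension, replicate 2 was above replicate 1 for 6 of the 9 genes, with a median ratio of 1.37, and for 34.6% of the genes at the floor, with a median ratio of 0.73. The same held for 6 of the 9 at syncytial blastoderm, 6 at cellular blastoderm and 5 at gastrula. Of the genes at the floor it held for 44.8%, 49.6% and 38.5%. The median ratios of the 9 genes were 1.40, 1.14 and 1.14, against 0.94, 0.99 and 0.85 for genes at the floor. The largest germ band extension ratios were those of MDOA012728 (4.64) and MDOA000855 (2.46), and the smallest those of MDOA013389 (0.554) and MDOA010465 (0.605). A difference between the 2 libraries of a stage has no replicate of its own and was not tested.

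**Figure D4:**
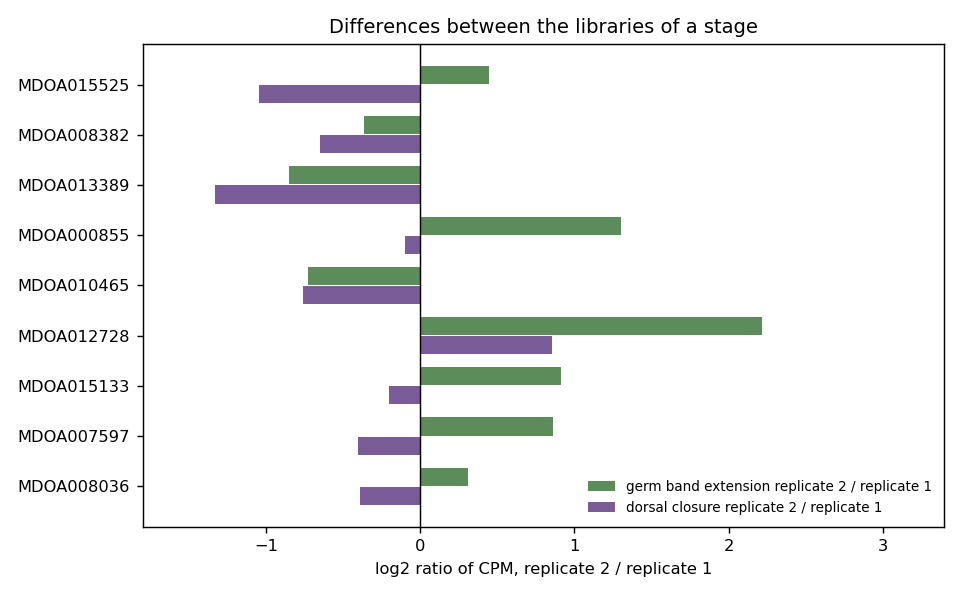
Log2 ratio of CPM of replicate 2 to replicate 1 for each of the 9 genes at germ band extension (green) and at dorsal closure (purple). At germ band extension 6 of the 9 genes are higher in replicate 2, led by MDOA012728 and MDOA000855, while at dorsal closure 8 of the 9 are lower in replicate 2.

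Membership depended on how the libraries were scaled. With TMM-scaled library sizes 9 genes met the rule and 7 of them were among the 9 described; the smaller ratio was 3.73 for MDOA012728 and 3.94 for MDOA015133. With DESeq2 size factors, rescaled to the mean library, 17 genes met it, 8 of them among the 9. Its size factors moved the median of all tested genes for dorsal closure against germ band extension to 0.39 on the log2 scale, against 0.01 with TMM, and the smaller ratios of the 9 genes to between 4.24 for MDOA012728 and 12.8 for MDOA015525. MDOA012728 then fell short of the floor rather than of the ratio.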

How the data were processed

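RNA of 10 libraries (5 stages, 2 replicates of 100 whole embryos each) was counted per gene by the authors. Each deposited file gives the unnormalized count of every gene in 1 library. The tools are STAR and HTSeq per the submitters' processing notes; for their versions, the genome build, the annotation and the strand setting the sources used here give nothing, so counts of overlapping, antisense or near-identical genes are uncertain. The 5 rows that name no gene held 16.8% to 36.1% of the reads and were left out of library sizes and tests. CPM is the count per 1000000 gene reads of the library; it was not corrected for transcript length, so levels are compared within a gene.

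The tests were fitted to all 10 libraries in R 4.3.3 with edgeR 4.0.16 (filterByExpr, leaving 11286 genes; TMM factors of 0.793 to 1.36; quasi-likelihood with robust dispersions; 5 residual degrees of freedom), with p-values adjusted over all genes tested. Calls are at an adjusted p under 0.05. Fold changes from these fits are on TMM-scaled libraries. The common biological coefficient of variation was 0.69, and 0.46 with the replicate block. The labels number the replicates 1 and 2 in every stage but name no batch. The log2 CPM difference between a stage's libraries correlated with that of every other stage (10 pairs of stages, r = 0.27 to 0.65 across genes, each over 0.1), so the numbers were taken as pairing the libraries and blocked values are given beside the others. The libraries of a stage differed well beyond sampling noise (chi-square per degree of freedom of at least 626.5), and each counted as 1 sample.

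Alternatives were DESeq2 1.42.0, limma-voom (limma 3.58.1), other scalings and filters, and each library left out; where 1 library is left in a stage it is assumed to vary like the others. The members and lists were chosen with earlier results of these data known. Genes were named as those with the highest ratio, the most reads at dorsal closure, a call among the earlier stages, an extreme ratio between the germ band extension libraries, or a place next to a threshold of the rule; MDOA015133 is named so that all 9 are accounted for. No pathway or marker list could be tested without gene names.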

Additional observations from a re-analysis of the deposited data

How the results depend on the processing

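The number of genes meeting the rule, 9 as described, was 9 with TMM scaling, 17 with DESeq2 size factors, 5 at a floor of 10 CPM, 14 at a floor of 2 CPM, 14 at a ratio of 3 and 1 at a ratio of 8. It ran from 9 to 37 with single libraries left out, and 37 was the value without dorsal closure replicate 2. Of the 9 genes, 9 met the rule in each of those 10 subsets, which an easier rule ensures.

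Members differing over the 4 earlier stages numbered 0 in the reported fit, 4 with the replicate block, 2 and 5 with the block and DESeq2 size factors or total counts, 1 with total counts and 2 in DESeq2. In the same order, 12.2%, 29.1%, 30%, 32.7%, 14.7% and 30.6% of all genes tested were called. The DESeq2 share is of the genes to which it gave an adjusted p. With single libraries left out, only blocked fits called any. For cellular against syncytial blastoderm the count was 0 as reported, and 1 with the block, with the block and either scaling, and in DESeq2. In that order 2.75%, 8.01%, 7.87%, 10.4% and 9.74% of all genes were called, the last again of genes with an adjusted p. With single libraries left out, only blocked fits called MDOA000855, and not all of them did. For germ band extension against syncytial blastoderm it was 0 as reported and 3 with the block. It was 4 and 3 with the block and DESeq2 size factors or total counts, 1 with total counts, 1 with the stricter filter and 2 in DESeq2. The shares of all genes were 14.9%, 32%, 33.4%, 34.5%, 16.3%, 19.8% and 29.6%. With single libraries left out the count varied with the library and the block. The fourth gene of the blocked fit with DESeq2 size factors, called higher, was MDOA015133. For dorsal closure against germ band extension the count was 8 as reported, where 17.2% of all genes were called in either direction. With single libraries left out it was lowest without germ band extension replicate 1. For gastrula against cellular blastoderm and germ band extension against gastrula no alternative called a member.

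The log2 fold changes called with the block (MDOA000855 for cellular against syncytial blastoderm, and MDOA007597, MDOA008382 and MDOA012728 for germ band extension against syncytial blastoderm) kept their sign under the alternatives run; those of other comparisons were not followed. Blocked fits with another scaling or with a library left out were chosen after seeing the data. Precision is limited by 2 libraries per stage.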
